A study of Oryza sativa Japonica Group with 4 samples.

Results

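NAC proteins are a plant-specific family of transcription factors that bind DNA through a conserved N-terminal domain named after the founding genes NAM, ATAF and CUC, and that usually carry a variable transcription-regulating region at the C-terminal end. In rice a subgroup of the family is known for transcripts that accumulate under drought, salt, cold, wounding or the stress hormone abscisic acid (ABA). Of 17905 rice genes measured with the GeneChip Rice Genome Array, 4 NAC genes are described here, NAC5, NAC45, NAC067 and NAC068, represented by 6 of 57194 probe sets. They were taken by gene symbol or synonym from the array's annotation. They were chosen from the measured genes with a NAC name, called NAC genes here, by their intensities in these same 4 arrays. All of them were higher with glutamine. Their differences between the groups are therefore given as a description, without a test.

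RNA came from whole roots of hydroponic rice seedlings (Oryza sativa japonica, variety TNG67) that had been grown without nitrogen and were 17 days old at treatment. The minus N group (2 arrays) was moved for 30 min to solution that again lacked nitrogen, and the plus glutamine group (2 arrays) was moved for 30 min to solution with 2.5 mM glutamine, an organic form of nitrogen that roots can absorb. All 4 samples thus share the nitrogen starvation and the transfer, and glutamine is the difference between the groups named in the labels. The comparison asks which transcripts respond within 30 min to an organic nitrogen source. Each value below is a probe set intensity, the summarised brightness of the probes for 1 transcript, on the linear scale the authors deposited.

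Several facts of the arrays bear on the values that follow. The median intensity over all probe sets lay between 19.7 and 22.3. Log2 intensities correlated more closely between the arrays of the same replicate number (r = 0.995 for number 1, r = 0.990 for number 2) than between the minus N arrays (r = 0.975) or the plus glutamine arrays (r = 0.983), a comparison over probe sets, which are no independent replicates. The ratio of 3′ to 5′ intensity of the Gapdh control, a measure of RNA integrity, was 6.94 and 6.20 in the arrays numbered 1 and 4.32 and 4.43 in those numbered 2, minus N first. Of 8 measured root markers, between 7 and 8 lay above the array median in every array, with a summed intensity of 11742.9 and 20408.7 without nitrogen against 13405.6 and 17202.3 with glutamine. Lsi1, a silicon channel of roots, stood between 7279.0 and 8999.3, while the aquaporin gene TIP2 read 2964.2 and 9018.8 in the minus N arrays. All 4 green shoot markers also lay above it, with a summed intensity of 9473.7 and 12978.5 without nitrogen against 11540.8 and 11911.9 with glutamine. Most of that sum is CAB2R, a chlorophyll-binding protein gene, and RBCS, the small subunit of Rubisco, varied more, at 300.2 and 1031.7 without nitrogen and 635.6 and 874.8 with glutamine. Of 10 seed storage genes 3 lay above the array median in every array, among them GLB at 878.2 to 1173.8 and GLUA-2 at 237.7 to 290.5, while prolamin stood between 9.9 and 15.3. The part of other tissue and RNA integrity in the results was not tested. In whole roots, a change in the share of a cell type and a change in the transcript level per cell cannot be told apart. With 2 arrays against 2, the smallest two-sided p of an exact permutation test is 0.333, and so few arrays limit how precise any value is.

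NAC5 (LOC4349963, also named OsNAC5, ONAC071 and NAC071) had the largest difference of the 4 genes. It encodes a transcriptional activator whose transcript is known in rice to rise with drought, salt, cold, ABA and jasmonate. Its brightest probe set, Os.4385.1.S1_at, read 951.4 and 1133.1 without nitrogen and 3353.3 and 3616.7 with glutamine. Both plus glutamine arrays lay far above both minus N arrays, and the arrays within each group were close together. On the log2 scale the minus N mean was 10.02 ± 0.18 (SD, n = 2) and the plus glutamine mean 11.77 ± 0.08 (SD, n = 2), which makes the ratio of the groups 3.35-fold. Within replicate number 1 the plus glutamine array was 3.52-fold above the minus N array, and within number 2 it was 3.19-fold above.

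The other probe sets of NAC5 gave the same direction. Both share the number 51926.1 in their names and are assigned to NAC5 by the annotation. They are therefore taken as further readings of 1 gene and not of separate genes. Os.51926.1.S1_x_at read 40.6 and 47.5 without nitrogen and 183.4 and 157.1 with glutamine, a 3.87-fold difference between group means of the log2 values. Os.51926.1.S1_at read 12.8 and 11.5 without nitrogen and 81.3 and 45.8 with glutamine. The minus N values of Os.51926.1.S1_at lie below the median of each array, a range where no detection calls were used here and the distance from background is not known, and its plus glutamine arrays differed from each other by 1.78-fold. The x in a probe set name marks probes that may also hybridise to other transcripts. Over Os.4385.1.S1_at and Os.51926.1.S1_x_at the fold within a replicate number ran from 3.19 to 4.52, and for the dim Os.51926.1.S1_at the folds of 6.35 and 3.98 rest on minus N values whose distance from background is not known.

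NAC45 (LOC4349650, also ONAC045) varied with the replicate number as well as with the group. It is a NAC factor whose overexpression is known to increase drought and salt tolerance in rice. Its single probe set, Os.35343.1.A1_at, read 154.0 and 216.1 without nitrogen and 268.4 and 428.1 with glutamine. The groups did not overlap, and in each group the array numbered 2 was the brighter, by 1.40-fold without nitrogen and by 1.60-fold with glutamine. The mean log2 intensity was 7.51 ± 0.35 (SD, n = 2) in minus N and 8.41 ± 0.48 (SD, n = 2) in plus glutamine roots, or 1.86-fold apart. Within the replicate numbers the fold was close, 1.74 in number 1 and 1.98 in number 2. The Gapdh ratio given above separates the same arrays by number, and its part in these values was not tested. Without plus glutamine replicate 2 the log2 difference was 0.56, against 0.89 with all arrays.

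**Figure D1:**
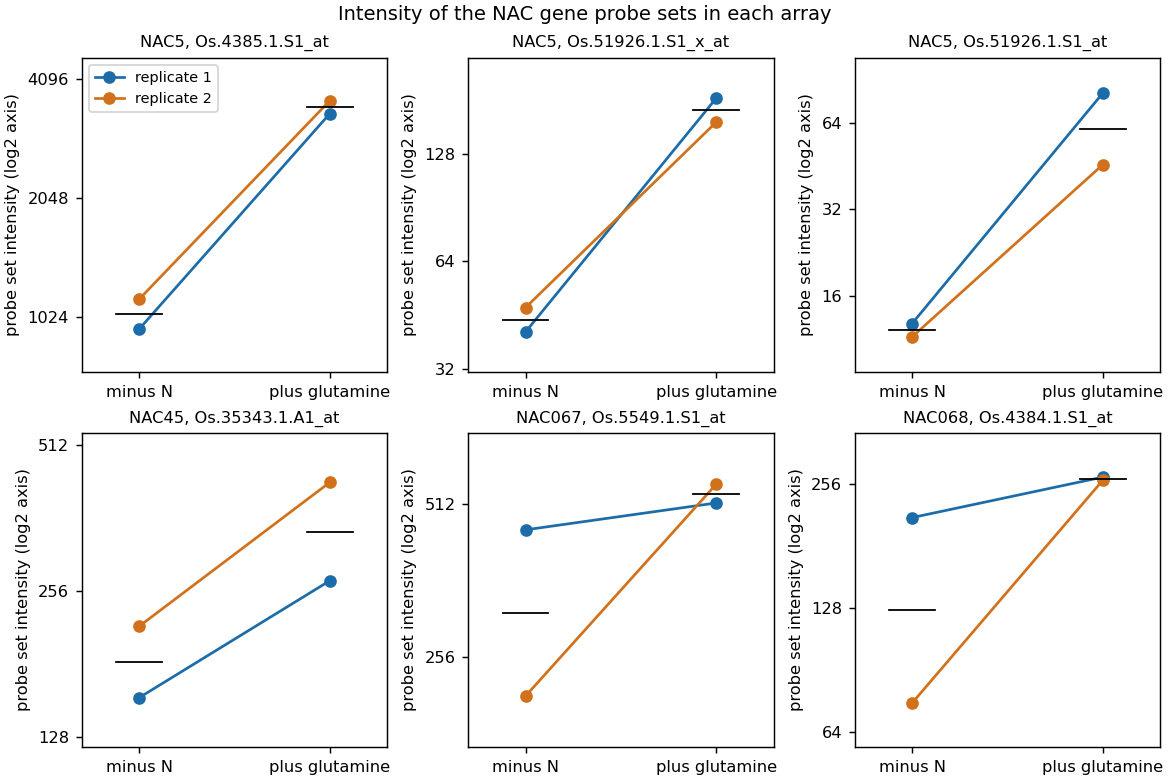
Intensity of the 6 probe sets of NAC5, NAC45, NAC067 and NAC068 on a log2 axis, with lines joining the arrays of the same replicate number and black bars at the mean of the log2 values of the 2 arrays per group. The lines of NAC5 and NAC45 slope upwards in both numbers, whereas those of NAC067 and NAC068 are steep in number 2, where the minus N array is low.

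NAC067 (LOC4342753, also OsNAC3) and NAC068 (LOC4327485, also OsNAC4) shared a pattern that differed from that of NAC5 and NAC45. OsNAC4 is known in rice as an inducer of hypersensitive cell death, a defence response. NAC067, by Os.5549.1.S1_at, read 454.6 and 214.3 without nitrogen and 513.4 and 559.2 with glutamine. NAC068, by Os.4384.1.S1_at, read 212.7 and 75.4 without nitrogen and 266.8 and 262.2 with glutamine. In both genes the groups did not overlap, the plus glutamine arrays were nearly alike, and minus N replicate 2 stood well below the other 3 arrays.

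The difference between group means of these genes therefore varied with the minus N array used. For NAC067 the mean log2 intensity was 8.29 ± 0.77 (SD, n = 2) in minus N and 9.07 ± 0.09 (SD, n = 2) in plus glutamine roots, or 1.72-fold apart. For NAC068 it was 6.98 ± 1.06 (SD, n = 2) in the former and 8.05 ± 0.02 (SD, n = 2) in the latter, or 2.09-fold apart. Each difference was about the size of the SD between the minus N arrays. Within number 1 the fold was 1.13 for NAC067 and 1.25 for NAC068. Within number 2 it was 2.61 for NAC067 and 3.48 for NAC068. Leaving out minus N replicate 2 reduced the log2 difference of NAC067 to 0.24 and that of NAC068 to 0.31, and leaving out minus N replicate 1 gave 1.32 and 1.81.

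**Figure D2:**
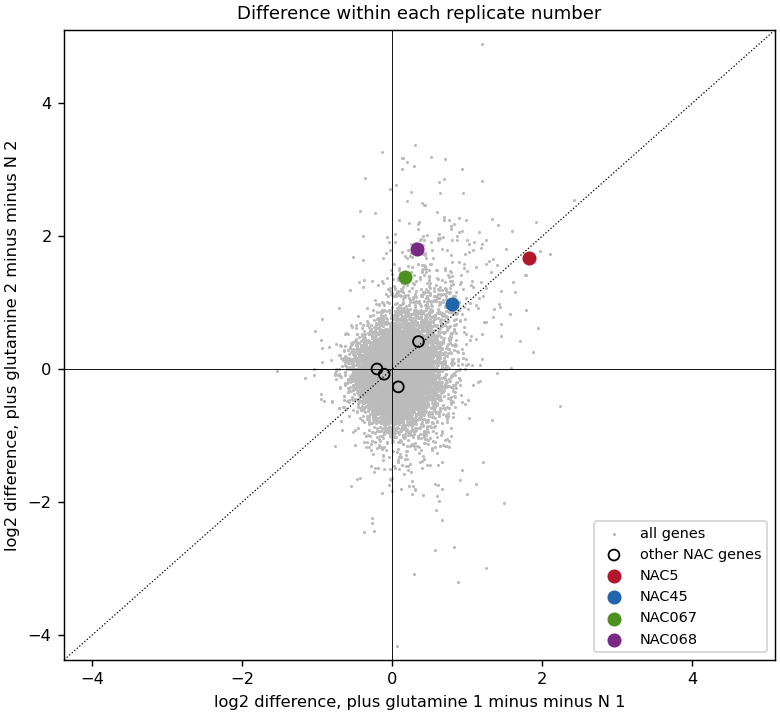
Log2 difference between plus glutamine and minus N within replicate number 1 (horizontal) and within number 2 (vertical), with 1 probe set for each of 17905 genes (grey), the 4 NAC genes (coloured) and the other 4 measured NAC genes (open circles). NAC5, at 1.82 and 1.67, and NAC45, at 0.80 and 0.99, lie near the dotted line of equal difference, and NAC067, at 0.18 and 1.38, and NAC068, at 0.33 and 1.80, lie above it.

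In all 4 genes the dimmer plus glutamine array was brighter than either minus N array, as it was in 10.1% of all measured genes, taking the brightest probe set of each. The same selection chose these genes, so nothing is read from the count. A difference of at least 2-fold without overlap held for NAC5 and NAC068, and for 0.737% of all genes. A difference of at least 2-fold within both replicate numbers held for NAC5 alone of the 4, and for 0.212% of all genes, or 38. Only 5 of the 17905 genes, NAC5 included, had a smaller within-number log2 difference of at least 1.67, the value of NAC5. The corresponding number was 82 genes for NAC45 at 0.80, 612 for NAC068 at 0.33 and 1467 for NAC067 at 0.18. These ranks describe how NAC5 stood out on the values that selected it.

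The spread between arrays of the same group also placed the genes differently. The minus N arrays differed by 2.12-fold for NAC067 and by 2.82-fold for NAC068. Among the brighter 50% of probe sets, 6.71% had a minus N gap at least as large as that of NAC067 and 2.84% one at least as large as that of NAC068. For NAC5 the minus N gap was 1.19-fold, and 60.8% of the brighter probe sets had one as large. In the plus glutamine arrays the gap was 1.09-fold for NAC067 and 1.02-fold for NAC068, which 77.0% and 95.3% of the brighter probe sets matched or exceeded. It was 1.08-fold for NAC5 (79.5%) and 1.60-fold for NAC45 (13.8%). Minus N replicate 2 was at least 2-fold below each other array for 140 genes, or 0.782% of all, NAC067 and NAC068 among them. For comparison, minus N replicate 1 was the array set apart downwards in this way for 20 genes, plus glutamine replicate 2 for 14 and plus glutamine replicate 1 for 0. The summed green shoot and root markers were both at their highest in minus N replicate 2, where NAC067 and NAC068 were at their lowest. Much of the root sum is TIP2, at 9018.8 in that array and 5308.3 in plus glutamine replicate 2. The median log2 intensity of the root markers was nearly level in these arrays, at 8.86 and 8.84. The part of the markers in the pattern was not tested.

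**Figure D3:**
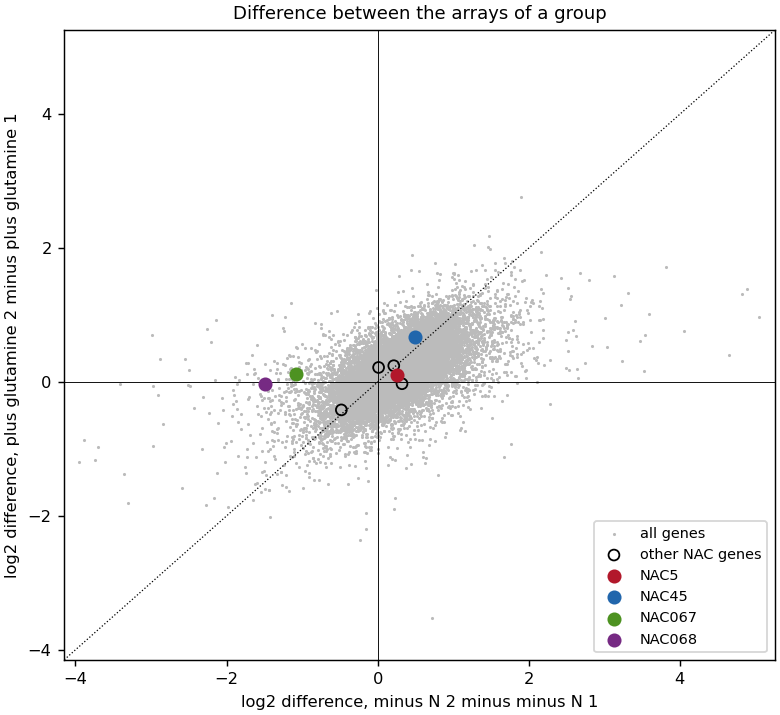
Log2 difference between the arrays of a group, number 2 minus number 1, in the minus N group (horizontal) and the plus glutamine group (vertical), for 17905 genes (grey), the 4 NAC genes (coloured) and the other 4 NAC genes (open circles). NAC067, at -1.08 and 0.12, and NAC068, at -1.50 and -0.03, lie far to the left near the horizontal axis, and NAC5 and NAC45 lie within the main cloud of genes.

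The other measured genes with a NAC name were NAC6, NAC2, NAC7 and NAC010, and none of the 4 was separated between the groups at its brightest probe set. Members of the family without such a name were not counted, so these 4 do not stand for the rest of the family. NAC6 (LOC4325006, also SNAC2), known in rice for induction by cold, salt, drought and wounding, read 951.9 and 960.0 without nitrogen and 826.8 and 961.2 with glutamine. Its log2 difference was -0.10 (SE 0.21, from limma's fit across all probe sets). The values of the groups thus overlapped for NAC6, and its remaining 2 probe sets were dim in every array, between 5.5 and 10.2.

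NAC2 (LOC4336052, also ONAC004) read 413.7 and 479.4 without nitrogen and 384.2 and 454.6 with glutamine, a log2 difference of -0.09. NAC7 (LOC4341201, also ONAC076) was dimmer, with 32.8 and 23.5 without nitrogen and 41.8 and 31.3 with glutamine, a log2 difference of 0.38. NAC7 was higher with glutamine within both replicate numbers, by 0.35 and 0.41, but the groups overlapped at this probe set. Its second probe set was higher without overlap, at 6.5 and 6.5 against 7.3 and 9.3, values near the bottom of the range. NAC010 (LOC4343630) stood between 5.2 and 6.5 in all arrays. NAC074 and NAC077 are in the gene table and have no named probe set here.

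Over all 57194 probe sets, limma's moderated test with Benjamini-Hochberg adjustment called none in either direction (0%). The unadjusted p was under 0.05 for 504 probe sets, and 453 of these were higher with glutamine. Of the 4 other NAC genes, 0 passed, with an adjusted p of 1 for each, and 0 had an unadjusted p under 0.05. A p that misses the threshold does not show that these genes were unaffected. Over the 8 measured NAC genes, 4 were separated upwards and 0 downwards, against 10.1% and 9.03% of all genes. The 4 higher genes are the selected ones, so this count follows from the selection. The median log2 difference of the other 4 was -0.09, and that of all genes was -0.01.

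Stress-responsive NAC genes of rice are known to act together with ABA signalling and with genes of dehydration protection, so 6 lists of such genes, matched by name, were set beside them. Together they held 97 measured genes, of which 14 were higher without overlap (14.4%) and 7 lower (7.22%), close to 10.1% and 9.03% of all genes. Limma called 0 of the 97, and 3 had an unadjusted p under 0.05, beside 285 of all 17905 genes. None of the 97 was at least 2-fold apart without overlap, and their median log2 difference was 0.01. Over all genes 0.737% were at least 2-fold higher without overlap and 6 genes lower. At so small a share nothing is read from a count of 0 among 97.

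The 9 measured genes of protective proteins, such as dehydrins and LEA proteins that accumulate in drying tissue, included 0 higher and 0 lower without overlap, with log2 differences from -0.19 to 0.46 and a median of 0.13. LIP9, a dehydrin, read 1673.2 and 2335.0 without nitrogen and 2002.2 and 2342.0 with glutamine. LEA3, a late embryogenesis abundant protein and a reported target of NAC5 in rice, read 44.8 and 96.0 without nitrogen and 80.8 and 82.8 with glutamine. LEA3 thus had its lowest and its highest value within the minus N group. The salt-induced gene salT read 626.2 and 510.3 without nitrogen and 518.2 and 515.3 with glutamine, and RAB16D, another dehydrin, stayed between 35.5 and 42.1.

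In 3 of 3 genes of ABA metabolism the groups overlapped, as they did in 80.9% of all genes. ABA8OX1, an ABA 8′-hydroxylase that begins ABA breakdown, read 99.2 and 203.3 without nitrogen and 203.2 and 274.5 with glutamine, so that minus N replicate 2 and plus glutamine replicate 1 were level. Its log2 difference was 0.73 (SE 0.40). ZEP, a zeaxanthin epoxidase of ABA synthesis, differed by 0.23, and ABA8OX2 by -0.15.

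Of 14 ABA signalling genes, 1 was higher (7.14%) and 2 lower (14.3%) without overlap, against 10.1% and 9.03% of all genes, with a median log2 difference of 0.06. The brightest were the receptor gene PYL11 and the kinase genes SAPK3, SAPK8 and SAPK2, with log2 differences of 0.14, 0.10, -0.0043 and 0.24. Of 55 PP2C phosphatase genes, a class that includes the negative regulators of ABA signalling, 8 were higher (14.5%) and 2 lower (3.64%) without overlap, against the same shares of all genes, with a median of -0.015. The brightest of them, PP2C14, PP2C12, PP2C28 and PP2C60, differed by 0.04, 0.10, -0.05 and -0.10. PP2C32, named because of its unadjusted p and after its values were seen, read 162.5 and 155.9 without nitrogen and 246.0 and 325.9 with glutamine, a log2 difference of 0.83 (SE 0.24, limma adjusted p = 1).

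Among 6 genes of osmolyte synthesis 2 were higher and 0 lower without overlap, against 10.1% and 9.03% of all genes. TPP2, a trehalose phosphate phosphatase, read 463.0 and 293.4 without nitrogen and 684.6 and 626.9 with glutamine, a log2 difference of 0.83 (SE 0.29, limma adjusted p = 1). Like NAC067 and NAC068 it was lowest in minus N replicate 2. P5CS1, which encodes the first enzyme of proline synthesis, read 492.1 and 829.1 without nitrogen and 457.0 and 832.4 with glutamine, and the betaine aldehyde dehydrogenase genes BADH1 and BADH2 differed by -0.08 and -0.03. These 3 genes followed the replicate number rather than the group.

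Of 10 genes listed by name as other stress transcription factors, 3 were higher and 3 lower without overlap. The shares of all genes were 10.1% and 9.03%, and none of the 10 passed limma's test. The list includes SAP6, SAP7, SAP9 and SAP11, and SAP6 and SAP9 carry the synonyms ZFP38 and ZFP33. Whether these SAP genes encode transcription factors was not checked, so the counts are of listed genes. MYB4, a MYB factor known for cold and drought responses in rice, read 1416.0 and 1071.5 without nitrogen and 1966.1 and 2404.4 with glutamine, a log2 difference of 0.82 (SE 0.25, limma adjusted p = 1). SAP9, SAP6 and MYBS3 were slightly lower without overlap, by 0.92-fold, 0.85-fold and 0.85-fold. None of these 10 listed genes reached the 2-fold difference of NAC5 and NAC068, which were selected on that difference. The comparison holds for the list only, which left out DREB1A and WRKY71, with log2 differences of 2.06 and 1.05. Without minus N replicate 2 the log2 difference of NAC068 was 0.31.

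**Figure D4:**
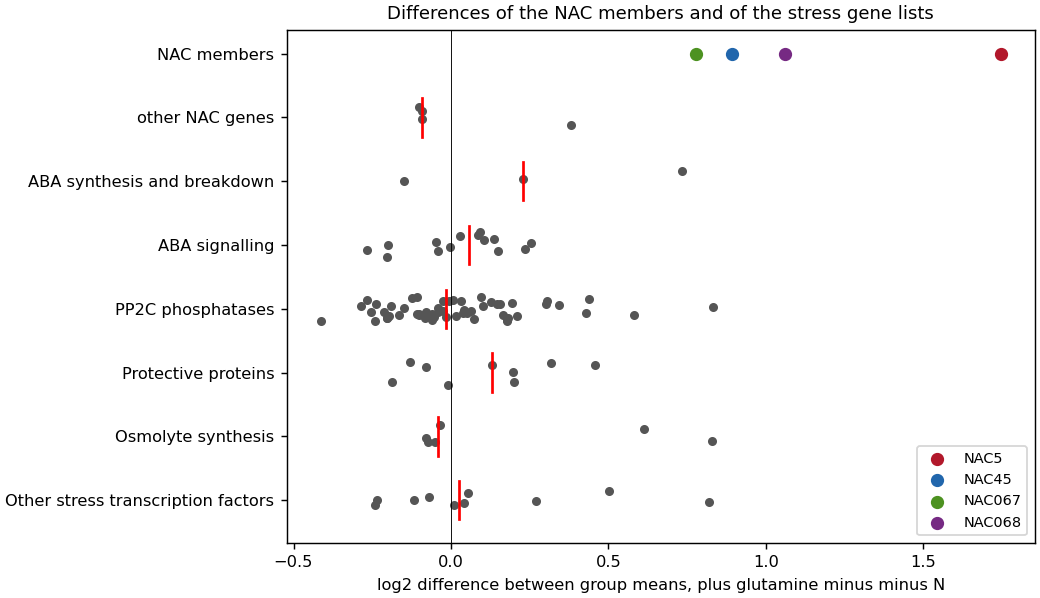
Log2 difference between group means for the 4 NAC genes (coloured), the other measured NAC genes and 6 lists of stress genes (grey points, 1 per gene, red bars at the median). The NAC genes stand between 0.78 and 1.75, and the highest gene of any list at 0.83. DREB1A, at 2.06, and WRKY71, at 1.05, are in none of the lists. The NAC genes were selected on this difference.

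The genes most like each NAC gene were found by the distance between log2 intensities centred on their own mean, over 4 arrays and 2433 named genes. With 4 arrays a small distance says only that values moved alike in these arrays. NAC5 lay nearest to DREB1A, a factor that binds the dehydration-responsive element, at a distance of 0.53. CIPK14, a protein kinase that partners calcineurin B-like calcium sensors, followed at 0.54, the cytokinin response regulator RR6 at 0.61, WRKY71 at 0.79 and PIN5 of the auxin efflux family at 0.82. DREB1A read 81.7 and 107.8 without nitrogen and 307.6 and 498.0 with glutamine. The median distance of a named gene to NAC5 was 1.80.

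NAC45 lay nearest to PIN5 (0.14), Agglutinin (0.22), CSTLP4 (0.22), GLU5 (0.24) and ABCG44 (0.25). PIN5, like NAC45, was brighter with glutamine and brighter in number 2 of each group, at 30.1 and 42.6 without nitrogen and 59.3 and 89.1 with glutamine. NAC45 was itself the gene ranked 14 in likeness to NAC5, at a distance of 0.96.

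NAC067 lay nearest to the heat stress factor HSFA4D (0.12), Pir7b (0.13), the potassium transporter gene HAK16 (0.16), SAT4 (0.22) and the calmodulin-like gene CML31 (0.26). HSFA4D read 231.0 and 104.4 without nitrogen and 257.2 and 254.4 with glutamine. NAC068 lay nearest to CML31 (0.18), the lipoxygenase gene CM-LOX2 (0.24), ITPK4 (0.24), the ethylene-insensitive3-like factor EIL1 (0.26) and CML15 (0.36). This EIL1 (LOC4332697, also EIL1B) read 902.5 and 252.4 without nitrogen and 927.1 and 944.4 with glutamine, so its number 1 arrays hardly differed. Another gene named EIL1 (LOC107276358) had log2 differences of -0.05 within number 1 and -0.01 within number 2. NAC067 and NAC068 were 0.42 apart, NAC068 being ranked 18 among the genes nearest to NAC067 and NAC067 ranked 8 among those nearest to NAC068. NAC5 stood at 1.35 from NAC067 and at 1.42 from NAC068.

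**Figure D5:**
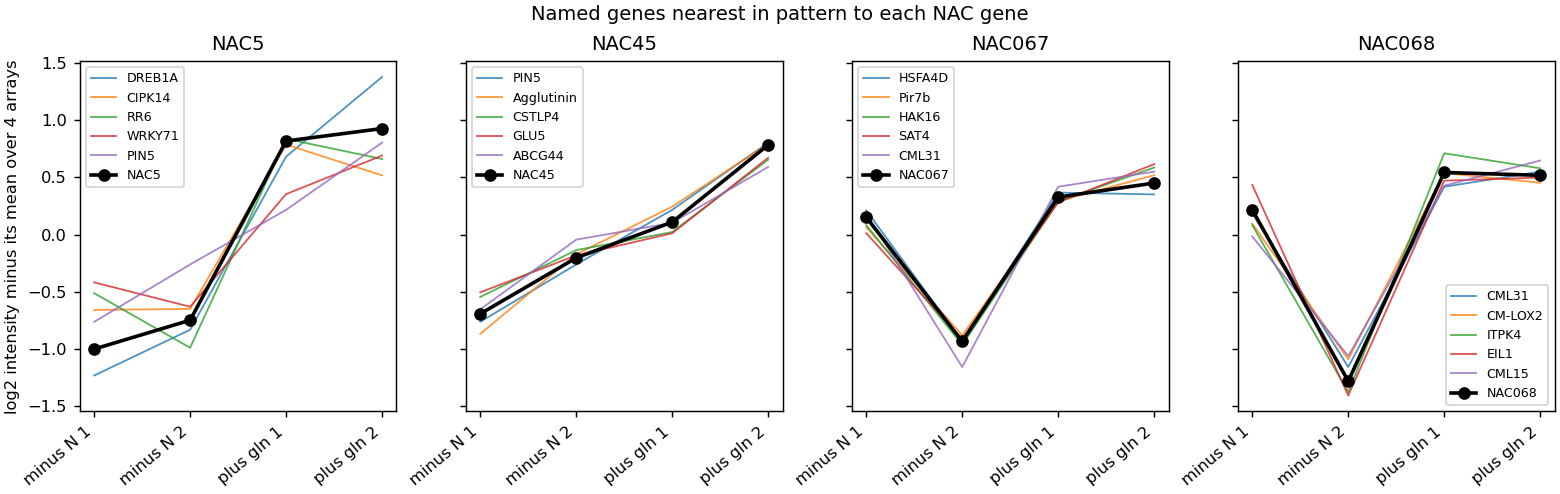
Log2 intensity minus its mean over the 4 arrays for each NAC gene (black) and the 5 named genes nearest to it (coloured), by array. The genes near NAC5 are high in both plus glutamine arrays, and those near NAC45 are also brighter in number 2. Those near NAC067 and NAC068 are lowest in minus N replicate 2, and minus N replicate 1 is also below both plus glutamine arrays, by less.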

How the data were processed

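Per the labels, biotinylated cRNA of each sample was hybridised to its own array. The values deposited by the authors are linear intensities between 2.9 and 21202.3, each summarising a probe set. The submitters' processing notes name GCOS and RMA. The scaling step is not stated in the sources used here. Intensities were used as log2 without further normalization, and 187 control probe sets (123 Affymetrix controls and 64 reporter sequences) were left out. By the array annotation 22436 probe sets have 1 gene, 95 have several (left unnamed) and 34663 have none. All 22436 matched by gene number to RefSeq genes of assembly ASM3414082v1, which supplied names and synonyms. The brightest probe set, by the mean over 4 arrays, stood for a gene.

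The members and lists were chosen with earlier results of these data known. Named were the 4 members, the 4 brightest genes of each list, any gene that passed, and the 5 nearest to each member. A planned definition of the family by protein similarity and a search of promoters were not run, and the family was taken by name. PP2C genes were counted apart from other ABA signalling genes, and TRAB1 (in ABA synthesis), TPPII and GRF4, matched through ambiguous synonyms, were dropped from 1 list each.

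The contrast was fitted in limma 3.58.1 (R 4.3.3) with group alone, with Benjamini-Hochberg adjustment at 0.05, two-sided. Nothing in the labels says that equal replicate numbers pair samples. The script was tested on simulated data, where it recovered planted changes at a small spread. It called none of them when each probe set took its own SD, estimated from these arrays, as its true spread. So few arrays make such an SD imprecise, so the simulation does not measure how large a change could be called here. The absence of calls does not bound the size of a change. Alternatives covered the replicate number as a block, the omission of each array, centring, quantile normalization, a floor, the variance prior and dim probe sets. Figures were drawn with matplotlib 3.10.9.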

Additional observations from a re-analysis of the deposited data

How the results depend on the processing

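The differences of NAC5, NAC45, NAC067 and NAC068 kept their direction under every alternative run. The groups of each gene did not overlap, so leaving out 1 array could not reverse the direction, and nothing is read from that. Leaving out each array in turn gave log2 differences from 1.62 to 1.87 for NAC5, 0.56 to 1.23 for NAC45, 0.24 to 1.32 for NAC067 and 0.31 to 1.81 for NAC068. Averaging the 3 probe sets of NAC5 gave 2.01 in place of 1.75, since the dimmer ones differ more. With the replicate block the log2 differences stayed at 1.75, 0.89, 0.78 and 1.06, as the design is balanced, and limma again called 0 probe sets, with 2479 at an unadjusted p under 0.05. Same-numbered arrays deviated together (r = 0.69 over 28597 brighter probe sets), but with 2 numbers this does not establish pairing. A replicate block with a trended and robust prior, added with earlier results known, called 20 probe sets, all higher, and none of the 4 other NAC genes or the 97 stress genes. The other alternatives called 0. The count of NAC family genes higher without overlap, 4, became 5 when any 1 array was left out and 5 with the mean of all probe sets. With 1 array fewer, separation is easier to reach and the 4 selected genes must keep it. The share of all genes under the same omission is not given, so nothing is read from the rise. The stricter similarity cut for the family was not run. No detection calls were used, which limits probe sets near the bottom of the range.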
